A study of Mus musculus with 12 samples.

Results

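The CD3 chains and T cell surface markers described here are 9 genes, Cd3d, Cd3e, Cd247, Cd4, Cd2, Cd5, Cd6, Cd7 and Thy1, taken by probe name from the 547 endogenous genes counted in 12 samples. The assay was NanoString's Immunology panel for the mouse, in which a barcoded probe binds each RNA and the barcodes are counted, so that a value is the digital count of 1 probe. T cells came from DO11.10 mice (DO.11 in the labels), whose transgenic T cell receptor recognizes an ovalbumin (OVA) peptide and is seen by the KJ1-26 antibody. They were injected into sublethally irradiated TLR9KO or TLR9WT Ii-TGO mice. In these mice, doxycycline (Dox) chow switches on an OVA fusion protein through an invariant chain promoter in MHCII+ cells. After Th2 cells, the paper shows lesions like those of cutaneous lupus in TLR9KO recipients and describes TLR9WT Ii-TGO mice as without disease.

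The flare group held 3 mice at about week 12, after Dox chow had been stopped and given again (skin scores of 1, 0.5 and 2). The first lesion group held 3 mice at about week 4 of Dox chow (skin scores of 1, 3 and 3). All 6 had received Th2 cells. The cultures were 3 of Th2 cells (IL-4 with antibodies to IFNγ and IL12p40), of which the 2 of experiment 2 are labelled male and female, 2 of Th1 cells (IFNγ with an antibody to IL4) and 1 of Th0 cells, which received neither. Every culture began from bead-purified CD4+ DO11 T cells, was activated and later reactivated with OVA-pulsed irradiated spleen cells, and received IL-2. The labels and the NanoString methods give CD3 bead columns for the skin cells, while the study's results text gives KJ1-26 beads. CD3 beads would also take T cells of the host, which sublethal irradiation leaves in part. The TLR9 genotype of each recipient was not given in the sources used here, and neither was whether mouse 1 of the flare group and mouse 1 of the first lesion group were the same animal. Experiment 1 supplied 5 skin samples, 1 Th2 and 1 Th1 culture, and experiment 2 the others.

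The T cell receptor reaches the cell surface only with the CD3 chains and carries no signalling tail of its own. CD3δ (Cd3d) and CD3ε (Cd3e) flank the receptor, and the ζ chain (Cd247) carries most of the tyrosine motifs that Lck phosphorylates when antigen is bound. CD4 is the coreceptor for MHC class II and brings Lck to the complex, CD2 is an adhesion receptor for CD48 in the mouse, CD5 and CD6 are scavenger receptor cysteine-rich proteins that damp receptor signalling, and Thy1 is a lipid-anchored glycoprotein of all mouse T cells that is also found on fibroblasts and some neurons.

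Of the 9 genes, 4 were matched by symbol in the RefSeq promoter table (assembly GRCm38.p6). They are shown because 3 of them belong to the CD3 chains, among them Cd3d, which had the highest bound of the set between skin and cultures, and Cd5 is 1 of the 2 genes set lower in Th2 than in Th1 cultures relative to these chains in edgeR, a call that did not hold in most of the alternatives tried. Each sequence runs from 250 bases before to 50 bases after the start given in the table, 5′ to 3′ on the strand of the gene. Capitals mark GGAAGT or its reverse complement ACTTCC, a core bound by ETS factors.
Cd3d, chr9:44981536-44981835, plus strand: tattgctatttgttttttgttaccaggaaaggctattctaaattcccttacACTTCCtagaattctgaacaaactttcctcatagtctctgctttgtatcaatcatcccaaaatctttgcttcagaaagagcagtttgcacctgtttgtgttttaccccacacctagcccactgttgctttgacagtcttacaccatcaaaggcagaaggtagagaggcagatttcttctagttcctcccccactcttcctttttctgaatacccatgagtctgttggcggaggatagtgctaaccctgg
Cd3e, chr9:45009562-45009861, minus strand: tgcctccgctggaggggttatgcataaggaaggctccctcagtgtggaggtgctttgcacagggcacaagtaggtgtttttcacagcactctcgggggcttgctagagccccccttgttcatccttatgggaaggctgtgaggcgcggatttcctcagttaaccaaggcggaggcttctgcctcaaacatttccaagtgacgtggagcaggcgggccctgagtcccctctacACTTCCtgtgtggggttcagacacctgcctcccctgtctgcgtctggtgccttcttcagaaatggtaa
Cd247, chr1:165788431-165788730, plus strand: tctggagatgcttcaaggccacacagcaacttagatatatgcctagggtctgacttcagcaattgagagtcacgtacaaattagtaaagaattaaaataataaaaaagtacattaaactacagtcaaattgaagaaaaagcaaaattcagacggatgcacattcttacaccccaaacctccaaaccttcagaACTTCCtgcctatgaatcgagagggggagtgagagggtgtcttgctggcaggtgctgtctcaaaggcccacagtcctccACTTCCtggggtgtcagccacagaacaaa
Cd5, chr19:10738925-10739224, minus strand: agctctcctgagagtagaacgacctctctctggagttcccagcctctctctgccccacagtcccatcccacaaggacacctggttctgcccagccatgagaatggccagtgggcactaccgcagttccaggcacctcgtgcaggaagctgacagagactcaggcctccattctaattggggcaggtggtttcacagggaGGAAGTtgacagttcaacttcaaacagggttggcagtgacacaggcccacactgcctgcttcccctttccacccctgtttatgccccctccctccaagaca
All 4 windows held the ETS letters, 5 times in all, and 23.8% of the 32851 promoters in the table did so. The E-box CAGGTG was in all 4 as well, and in 20.2% of all promoters. The letters TGTGGT, a core bound by RUNX factors, were in none of the 4 windows and in 16.8% of all promoters. The letters AGATAA, bound by GATA family zinc finger factors, were in none of the 4 and in 11.2% of all. The 4 motifs, ETS included, were searched on both strands, were chosen after the sequences had been read, and no match overlapped a match of another motif. In the same annotation Cd3d and Cd3e are neighbours with no protein-coding gene between them, as are Cd5 and Cd6.

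Endogenous counts summed to 25925 to 131229 in the 6 skin samples and to 417917 to 481131 in the 6 cultures, although the positive control probes summed to more in skin (56875 to 135552, against 28205 to 60592 in cultures). A gene counted as measured when it lay above the mean plus 2 SDs of the 8 negative control probes of its own sample. In counts, this limit was 17.4, 23.7 and 20.5 in flare mice 1, 2 and 12 and 33.4, 23.1 and 46.3 in first lesion mice 1, 3 and 6. It was 14.8 to 21.9 in the Th2 cultures. For comparisons, counts were divided by a factor from 7 housekeeping genes (scaled counts), and since these were fewer in skin, the limit stood at 35.7 to 242 scaled counts there and at 5.42 to 8.41 in Th2 cultures. First lesion mouse 1, with the highest scaled limit, had 163 genes above it, against 217 to 303 in the other 5 skin samples.

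Of the 54 values of these genes in skin, 14 lay above the limit, whereas 8 of the 9 genes lay above it in every culture. Together the 9 genes took 0.339% to 0.523% of endogenous counts in skin and 7.18% to 8.20% in cultures. Their summed counts in skin were 122, 141 and 189 at flare and 143, 220 and 445 at first lesions. The same 9 probes at the mean of the negative controls would have given 77.6, 100.1 and 120 at flare and 169, 85.5 and 177 at first lesions, so that in first lesion mouse 1 the sum was below what empty probes give. The skin samples are labelled as enriched T cells, and the T cell markers Cd3d, Cd3e, Cd247 and Cd4 were above the limit there in 1, 0, 2 and 1 of the 6 samples. In bulk RNA, fewer T cells and less of this RNA per T cell cannot be told apart.

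**Figure D1:**
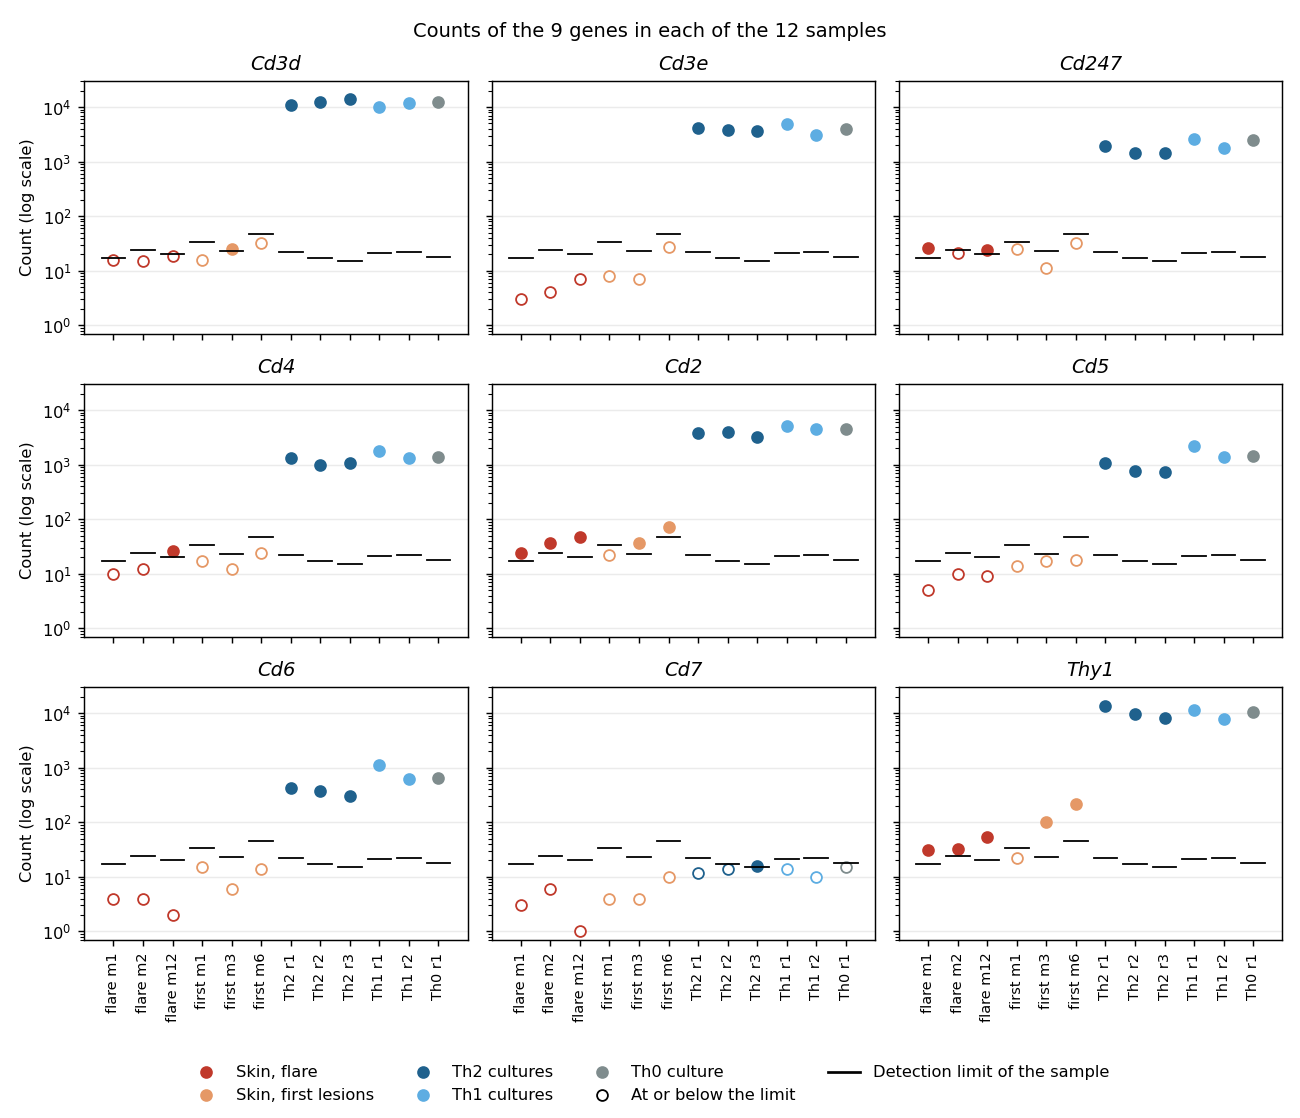
Counts of each gene (log axis) in the 3 flare, 3 first lesion, 3 Th2, 2 Th1 and 1 Th0 samples (m, mouse; r, replicate), with the detection limit of each sample as a black line and open points at or below it. Apart from Cd7, all genes stood far above the limit in the 6 cultures, and in skin only Cd2 and Thy1 were above it in 5 of 6 samples.

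The CD3 chains were near background in skin and far above it in every culture. Cd3d gave 16, 15 and 19 counts at flare and 16, 25 and 32 at first lesions, against 10884, 12230 and 13838 in Th2 cultures. The groups did not overlap, and only first lesion mouse 3 exceeded its limit, with 25 counts for a limit of 23.1. Had the skin samples held as much Cd3d per housekeeping RNA as the Th2 cultures, their counts would have been 571 to 3740. Scaled Cd3d averaged 4406 ± 666 in Th2 cultures (SD, n = 3). With each skin sample set at its limit or at its own value, whichever is higher, Cd3d was at least 38.1-fold lower in skin, with an adjusted p of 4.4e-07 (edgeR's quasi-likelihood test, Benjamini-Hochberg over all genes tested in a comparison, here 420, as for every adjusted p that follows unless another tool is named). Folds written as "at least" are made in the same way throughout. An adjusted p beside such a fold belongs to the test on the counts as measured and does not test the bound. At flare, where no mouse exceeded the limit, Cd3d was at least 36.8-fold lower than in Th2 cultures (adjusted p = 1.1e-06).

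Cd3e was at or below the limit in all 6 skin samples. The Cd3e probe gave 3, 4 and 7 counts at flare and 8, 7 and 27 at first lesions, against 4130, 3871 and 3676 in Th2 cultures, and was therefore at least 12.1-fold lower in skin (adjusted p = 4.4e-07). Cd247 gave 26, 21 and 24 counts at flare and 25, 11 and 32 at first lesions, against 1913, 1452 and 1437 in Th2 cultures. It was above the limit in flare mice 1 and 12, and was at least 4.50-fold lower in skin than in Th2 cultures (adjusted p = 0.0011). The sum of the 3 chains was 45, 40 and 50 counts at flare and 49, 43 and 91 at first lesions, where 3 empty probes would have given 25.9, 33.4 and 40.1 at flare and 56.3, 28.5 and 58.9 at first lesions. In the Th2 cultures the sum was 16927, 17553 and 18951.

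Cd4 followed the CD3 chains. It gave 10, 12 and 26 counts at flare and 17, 12 and 24 at first lesions, against 1353, 1004 and 1072 in Th2 cultures, and was above the limit in flare mouse 12 alone. Cd4 was at least 3.49-fold lower in skin than in Th2 cultures (adjusted p = 0.00021). In first lesion mice, none of which exceeded the limit, Cd4 was at least 3.72-fold lower than in Th2 cultures. At the Th2 level, Cd4 would have given 53.4 to 350.1 counts in the skin samples, above the limit in all 6.

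Cd2 and Thy1 were the genes of this set still measurable in skin, in all 3 flare mice and in first lesion mice 3 and 6. Thy1 gave 31, 33 and 53 counts at flare and 22, 101 and 217 at first lesions, against 13759, 9684 and 8286 in Th2 cultures. Scaled, Thy1 was 239, 221 and 170 at flare and 160, 156 and 256 at first lesions, with first lesion mouse 1 below its limit of 242, and 5276, 3079 and 3088 in Th2 cultures. The 5 measured skin values all lay within 156 to 256. This gave a log2 fold change of -4.25 ± 0.32 (SE, adjusted p = 5.2e-07), and the skin mean was 5.25% of the Th2 mean. Cd2 gave 24, 36 and 48 counts at flare and 22, 37 and 71 at first lesions, against 3750, 3928 and 3205 in Th2 cultures. The log2 fold change of Cd2 was -3.26 ± 0.32 (adjusted p = 3.0e-06), with a skin mean of 11.3% of the Th2 mean. Both skin means, of Thy1 and Cd2, include first lesion mouse 1, below its limit, and neither is corrected for probe background. Over the alternatives tried, the log2 fold change ran from -4.23 to -3.12 for Cd2 and from -5.12 to -3.94 for Thy1. Cd2 exceeded Cd3d in every skin sample, at 1.38 to 2.53 Cd2 counts for each Cd3d count. In all 6 cultures the order was the other way, with 1.90 to 4.32 Cd3d counts for each Cd2 count. Cd3d was at or below the limit in 5 of the 6 skin samples, so the ratio there is mostly one of Cd2 to background, and since probes differ in efficiency the order within a sample is not an order of RNA levels.

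The inhibitory receptors Cd5 and Cd6 were at or below the limit in all 6 skin samples. Cd5 gave 5, 10 and 9 counts at flare and 14, 17 and 18 at first lesions, against 1070, 773 and 735 in Th2 cultures, at least 2.69-fold lower in skin (adjusted p = 0.00016). Cd6 gave 4, 4 and 2 counts at flare and 15, 6 and 14 at first lesions, against 422, 382 and 301 in Th2 cultures, at least 1.14-fold lower in skin (adjusted p = 0.0071). The Cd6 comparison is the least secure of the set, since a Th2 level of Cd6 would have been above the limit in only 3 of the 6 skin samples. In first lesion mouse 1 the limit corresponded to 184% of the Th2 mean of Cd6. Cd6 was not called in first lesions against Th2 cultures (adjusted p = 0.073) and was called there without first lesion mouse 1 (adjusted p = 5.6e-05). With the samples of experiment 1 alone, where 1 Th2 culture remains and is assumed to vary like the skin groups, the Cd6 call between skin and Th2 cultures was lost (adjusted p = 0.12).

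Cd7, another T cell surface protein, gave 1 to 10 counts in skin and 10 to 16 in cultures. It was above the limit in 1 of 12 samples, Th2 replicate 3, with 16 counts for a limit of 14.8, and was not tested. No level or fold can be read for it in any group.

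**Figure D2:**
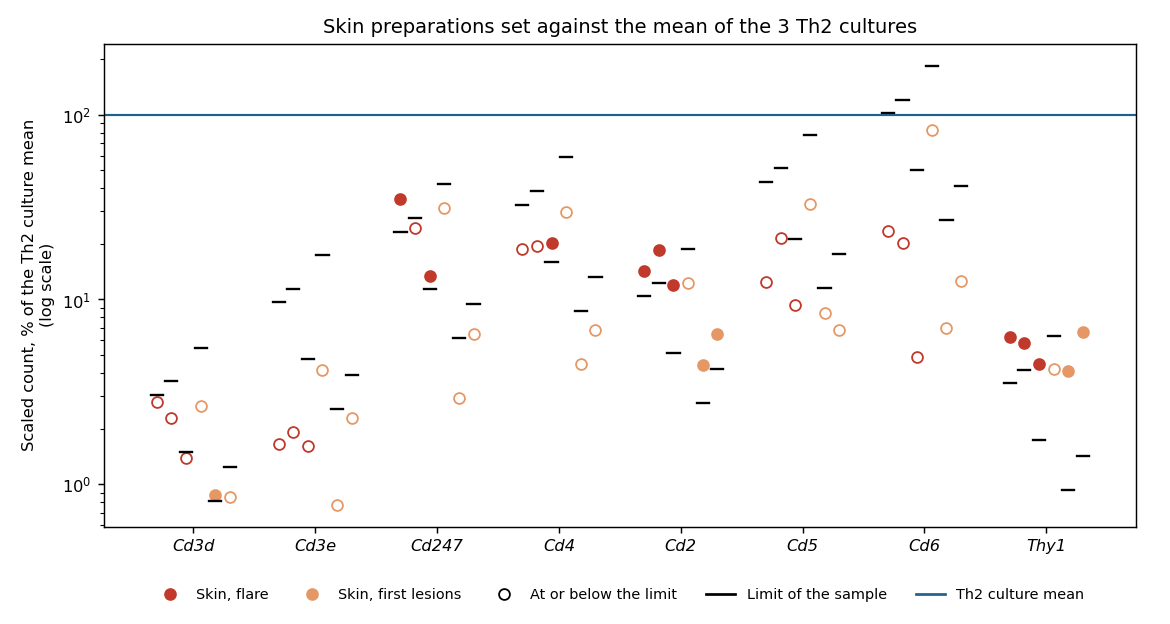
Scaled counts of 8 genes in the 3 flare and 3 first lesion mice as a percentage of the mean of the 3 Th2 cultures (log axis); short lines give each sample's limit on the same scale and open points lie at or below it. Thy1 lay between 4.09% and 6.70% in the 5 mice where it was above the limit, while for Cd6 the limit passed 100% in 3 mice.

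All 8 genes tested were lower in skin than in Th2 cultures, beside 23.1% of the 420 genes tested that were called lower and 49.0% called higher. The count of 8 was the same at flare (21.6% of 403 genes lower) and was 7 at first lesions (22.2% of 397 genes lower), both set against the same 3 cultures. Cd3d, Cd3e, Cd247, Cd4, Cd5 and Cd6 entered the test only because they were high in the cultures. The count of genes called and the adjusted p of these genes are therefore no support of their own. The median log2 fold change of all 420 genes was 0.98. With TMM factors in place of the housekeeping genes it was 0.03, with 158 genes called higher and 161 lower (206 and 97 with the housekeeping genes), and Thy1 was then at -5.12. Within experiment 1 (5 skin samples, 1 Th2 culture) Cd3d was at least 33.2-fold, Cd3e at least 12.7-fold and Cd6 at least 1.29-fold lower in skin. Within experiment 2 (1 flare sample, 2 Th2 cultures) the bounds were 68.5-fold for Cd3d, 19.7-fold for Cd3e and 1.77-fold for Cd6, and the other 5 genes had bounds between those of Cd6 and Cd3d in both experiments.

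Flare was set against first lesions to ask whether T cell RNA changed when the disease returned. The ranges of the 2 groups overlapped for all 9 genes. For Cd2 they did so only through first lesion mouse 1, whose 22 counts lay below its limit of 33.4 counts. That value is part of the first lesion mean of Cd2. Only Cd2 and Thy1 were measured in enough samples to be tested. Scaled Cd2 was 185, 241 and 154 at flare and 160, 57.2 and 83.7 at first lesions, with means of 193 ± 43.9 at flare and 100.2 ± 53.2 at first lesions (SD, n = 3 each). The log2 fold change was 1.01 ± 0.47 with an adjusted p of 0.47. For Thy1 it was 0.12 ± 0.39, with an adjusted p of 0.92 and means of 210.2 ± 35.6 at flare and 190 ± 56.5 at first lesions (SD, n = 3 each). No gene of the 277 tested was called (0%) by edgeR, 30 had an unadjusted p under 0.05, and DESeq2 called 10. Without first lesion mouse 1, Cd2 had a log2 fold change of 1.44 and an adjusted p of 0.12. Within experiment 1, the log2 ratio of the means was 1.09 for Cd2 and 0.27 for Thy1, and experiment 2 held no first lesion sample.

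The other T cell genes of the panel showed which transcripts shared this pattern. Of a list of 22, 18 were measured. All 18 were above the limit in every culture, and 4 to 8 of them were above it in each skin sample. Between skin and Th2 cultures 11 were lower, 2 were higher and 5 were not called, beside 23.1% of all genes called lower and 49.0% called higher. Of the 18, 10 were above the limit in no skin sample, 6 of the 11 lower genes among them, and these entered the test only through the cultures. Il2ra, the high-affinity IL-2 receptor chain, gave 13 to 25 counts in skin and 19506 to 34984 in Th2 cultures and was at least 84.7-fold lower. The costimulatory receptor Icos and the kinase Lck were likewise at or below the limit in all 6 skin samples, at least 35.2-fold lower for Icos and 17.6-fold lower for Lck. Lcp2, the adaptor SLP-76 that T cells share with myeloid cells and platelets, was higher in skin, with 70 to 158 counts against 143 to 163 in Th2 cultures at far larger totals (log2 fold change 2.89 ± 0.49, adjusted p = 0.00024). Tcf7, a transcription factor of naive and memory T cells, was the other gene called higher (log2 fold change 1.07, adjusted p = 0.048), close to the median of all genes. With 15 to 88 counts, Tcf7 was above the limit in only 3 of 6 skin samples. The list also holds Ptprc and Itgb2, which all leukocytes express and which were among the 11 lower genes.

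Markers of other cells moved with this difference. The 13 macrophage and monocyte genes measured summed to 2.68% to 5.01% of endogenous counts in skin, more than the 9 CD3 and surface marker genes in each of the 6 samples, and to 0.0495% to 0.0660% in Th2 cultures. All 10 of them that were tested were higher in skin, beside 49.0% of all genes, and 8 of the 10 were above the limit in at least 5 skin samples. Of the 10, 5 were above it in no Th2 culture and entered the test only through skin. Tyrobp, an adaptor of myeloid and NK receptors, gave 192 to 2101 counts in skin and 40 to 52 in Th2 cultures, and the defining gene Csf1r gave 72 to 547 in skin and 5 to 14 in Th2 cultures, where it was not above the limit. The other defining gene, Itgam, was above the limit in 2 of 6 skin samples and 1 of 3 Th2 cultures.

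The sums of these gene lists were not corrected for probe background, which takes a larger share of the lower totals in skin. Beside the calls for each list, 49.0% of all 420 genes tested were called higher. The 6 neutrophil genes summed to 0.324% to 1.58% in skin and 0.0315% to 0.120% in Th2 cultures, with 3 of 3 tested higher. Of their defining genes, however, Csf3r was above the limit in 2 of 6 skin samples and Cxcr2 in none. The 6 dendritic cell genes summed to 0.558% to 1.21% in skin and 0.111% to 0.247% in Th2 cultures (3 of 4 higher), with Itgax above the limit in 3 of 6 skin samples and 3 of 3 Th2 cultures. For the 5 stromal, endothelial and epithelial genes the sums were 0.428% to 0.683% in skin and 0.132% to 0.163% in Th2 cultures (3 of 4 higher). Cxcl12 and Fn1 were above the limit in all 6 skin samples, and in 0 of 3 (Cxcl12) and 1 of 3 (Fn1) Th2 cultures. Of the defining genes, the endothelial Pecam1 was above it in 4 of 6 skin samples and 3 of 3 Th2 cultures and was not called (scaled means of 165 in skin and 217 in Th2 cultures), Cdh5 was above it in 1 of 6 skin samples and 2 of 3 Th2 cultures, and Pdgfrb in 0 of 6 skin samples and 1 of 3 Th2 cultures. The 2 mast cell genes measured summed to 0.0549% to 0.104% in skin and 0.00431% to 0.00497% in Th2 cultures, and the 1 that was tested, Fcer1a, was above the limit in 1 of 6 skin samples and 2 of 3 Th2 cultures, so that its call as higher in skin rests on scaled values at background.

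Genes of other lymphocytes, apart from Blnk, were at or near background in skin. Of the 9 CD8 T and NK cell genes measured, none was above the limit in any skin sample, Cd8a included, and their sums were 0.0975% to 0.333% in skin and 0.0506% to 0.0638% in Th2 cultures, with 0 of 3 tested called by edgeR. Of 9 B cell genes at most 1 was above the limit in a skin sample, with Cd79a in none, and the sums were 0.159% to 0.413% in skin and 0.223% to 0.587% in Th2 cultures. In the Th2 cultures 6 to 7 of the B cell genes were above the limit, and 3 of the 5 tested were lower in skin while 1, Blnk, was higher. Blnk gave 26 to 116 counts in skin and was above the limit in 5 of 6 samples, with 107 to 248 scaled counts against 35.7 to 76.3 in Th2 cultures. The part of any of these cells in the low T cell counts of the skin samples was not tested.

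**Figure D3:**
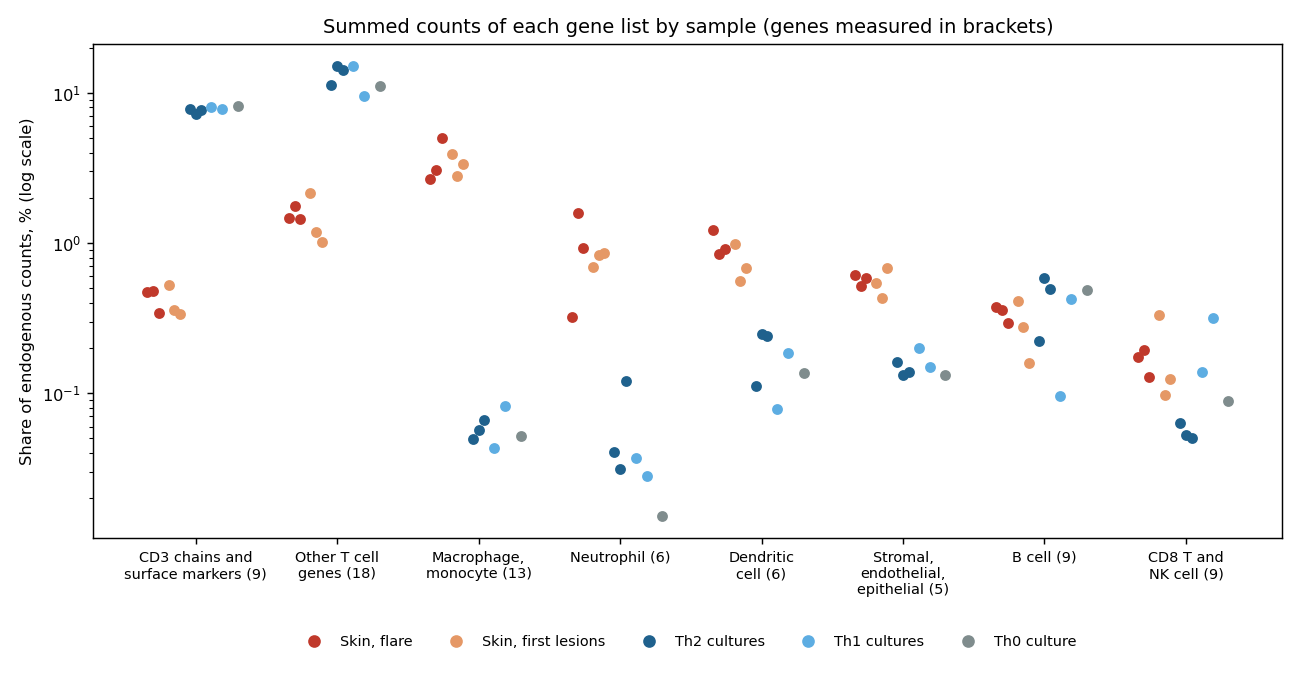
Share of endogenous counts (log axis) taken by each gene list in each sample, with the number of genes measured in brackets and points for the 3 flare, 3 first lesion, 3 Th2, 2 Th1 and 1 Th0 samples. In skin the macrophage and monocyte genes stood at 2.68% to 5.01% and the CD3 chains and surface markers at 0.339% to 0.523%, and in the cultures the order of the 2 lists was the opposite.

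The cultures show how these genes vary where T cells are the starting material. Of the genes that define the culture types, the Th1 factor Tbx21 gave 30, 50 and 53 counts in Th2 cultures, 283 and 482 in Th1 cultures and 316 in the Th0 culture. The Th2 cytokine Il4 gave 1933, 1761 and 1711 counts in Th2 cultures but also 1263 and 779 in Th1 cultures, and 1680 in the Th0 culture. The Th1 cytokine Ifng was above the limit in Th1 replicate 1 alone, with 71 counts, and was at 19 in Th1 replicate 2 and at 4 to 10 in the Th2 cultures. Gata3, the Th2 factor, gave 6290, 6084 and 5243 counts in Th2 cultures, 4790 and 2716 in Th1 cultures and 3541 in the Th0 culture. With 102 to 1211 counts, Gata3 was the only one of these 4 genes above the limit in skin, in all 6 samples. These counts are not scaled. The housekeeping factors were 0.130 to 0.849 in skin and 2.61 to 3.15 in Th2 cultures. The skin counts of Gata3 therefore do not show how far its level lay from that of the Th2 cultures. Tbx21, Il4 and Gata3 were each above the limit in all 6 cultures. Every Th2 culture had fewer Tbx21 counts than the Th1 and Th0 cultures, and more Il4 and Gata3 counts. Between Th2 and Th1 cultures, Il4 (log2 fold change 1.63, adjusted p = 0.015) and Gata3 (1.44, 0.033) were called higher. Tbx21 was called lower (-2.24, 0.0049), beside 27.2% of 400 genes called higher and 4.50% called lower.

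Scaled Cd3d was 4174, 3888 and 5157 in Th2 cultures, 2181 and 2105 in Th1 cultures and 3139 in the Th0 culture. Scaled Cd3e was 1584, 1231 and 1370 in Th2 cultures, 1065 and 555 in Th1 cultures and 986 in the Th0 culture. Scaled Thy1 was 5276, 3079 and 3088 in Th2 cultures, 2496 and 1401 in Th1 cultures and 2617 in the Th0 culture. Cd3d, Cd3e, Cd2 and Thy1 had no overlap between Th2 and Th1 cultures. The Th0 culture lay between the groups for Cd3d, Cd2 and Thy1 and within the Th1 range for Cd3e. The share of all genes without overlap is not given, so this separation is not read as particular to these genes. Cd247, Cd4, Cd5 and Cd6 overlapped. None of the 8 genes tested was called between Th2 and Th1 cultures, beside 27.2% of 400 genes called higher and 4.50% called lower. The largest log2 fold changes of the 8 were 1.04 ± 0.40 for Cd3d (adjusted p = 0.072), 0.97 ± 0.46 for Thy1 (0.13) and 0.78 ± 0.38 for Cd3e (0.14), beside a median of 0.58 over all genes. The other 5 lay between -0.46 ± 0.38 for Cd6 and 0.41 ± 0.34 for Cd2. Among the other T cell genes, Icos (1.62, adjusted p = 0.044), Cd27 (1.26, 0.017) and the IL-7 receptor chain Il7r (1.03, 0.042) were called higher in Th2 cultures, and the other 15 were not called.

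The 2 experiments each held Th2 and Th1 cultures. With the experiment as a replicate block Cd3d, Cd3e and Thy1 were called higher in Th2 cultures, beside 159 of the 400 genes tested. Their log2 fold changes were then 1.03 ± 0.25 for Cd3d (adjusted p = 0.027), 0.94 ± 0.25 for Cd3e (0.033) and 1.11 ± 0.21 for Thy1 (0.015). Without Th1 replicate 1 only 1 Th1 culture was left. The median log2 fold change of the 389 genes then tested was 0.88, against 0.58 with both Th1 cultures. Within experiment 1 the log2 ratio of the means was 0.94 for Cd3d, 0.57 for Cd3e and 1.08 for Thy1, and within experiment 2 it was 1.10 for Cd3d, 1.23 for Cd3e and 1.14 for Thy1. These differences turn on the scaling. The housekeeping genes had geometric means of 7028 to 8477 counts in Th2 cultures and 12152 to 15129 in Th1 cultures, while endogenous totals were alike (422557 to 481131 in Th2, 417917 to 480149 in Th1). With total endogenous counts as the scaling, Cd3d was at 0.16 and Cd3e at -0.03, and Cd5 (-1.08, adjusted p = 0.031) and Cd6 (-1.26, adjusted p = 0.026) were called lower in Th2 cultures, with 23 genes higher and 53 lower in all (109 and 18 with the housekeeping genes).

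Set against the CD3 chains of the same culture, the surface receptors need no housekeeping genes. Here the geometric mean of Cd3d, Cd3e and Cd247 counts was the reference, and levels are counts per 100 such counts. Cd5 was 24.2, 18.9 and 17.6 in Th2 cultures, 44.4 and 34.7 in Th1 cultures and 29.0 in the Th0 culture. Cd6 was 9.56, 9.33 and 7.20 in Th2 cultures, 22.7 and 15.5 in Th1 cultures and 13.3 in the Th0 culture. For both, every Th2 culture was below the Th0 culture and both Th1 cultures were above it. The log2 fold changes between Th2 and Th1 cultures were -0.97 ± 0.25 for Cd5 (adjusted p = 0.041) and -1.14 ± 0.28 for Cd6 (adjusted p = 0.034), beside 9.82% of 397 genes called lower. Both calls were lost in limma (0.061 for Cd5, 0.051 for Cd6). They were also lost without either Th1 culture, without Th2 replicate 2 and without Th2 replicate 3 (0.056 to 0.18 over these fits). Both held with the experiment as a replicate block (0.016 for Cd5, 0.013 for Cd6), beside 66 of 397 genes called lower.

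Cd2, Cd4 and Thy1 were not called on this scale. Cd2 was 85.8 ± 9.65 in Th2 cultures (n = 3) and 107.7 ± 5.0 in Th1 cultures (n = 2), with an adjusted p of 0.32. Cd4 was 26.9 ± 3.27 in Th2 cultures and 34.4 ± 2.56 in Th1 cultures (adjusted p = 0.29), and Thy1 was 249 ± 57.8 in Th2 cultures and 210.1 ± 23.1 in Th1 cultures (adjusted p = 0.53; all errors SD). In the Th0 culture Cd2 was 92.5, Cd4 28.2 and Thy1 210.3. Skin could not be put on this scale, since the 3 chains exceeded the limit in 3 of 18 skin values.

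**Figure D4:**
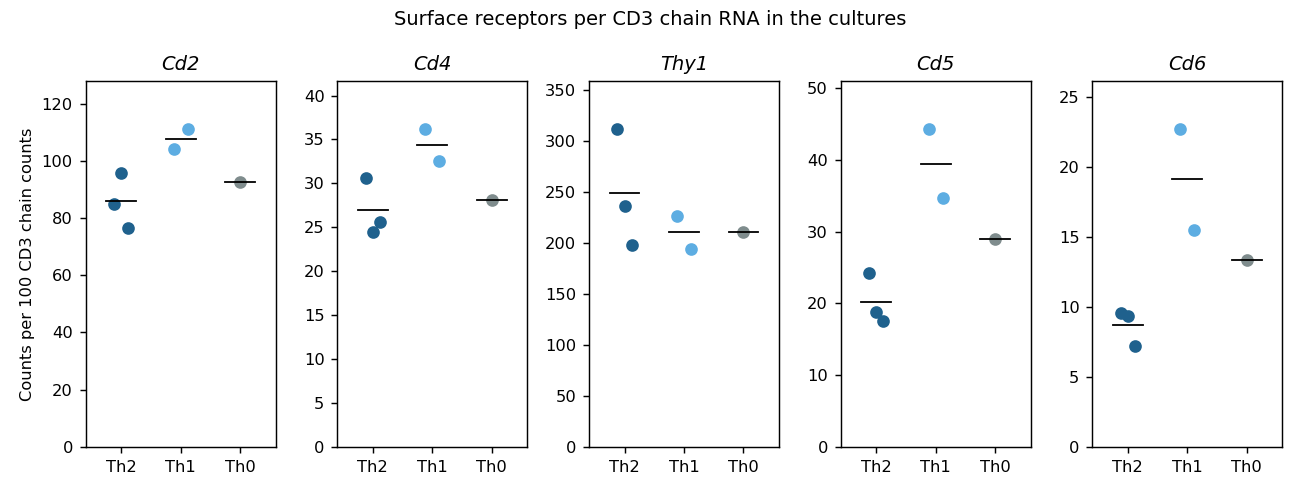
Counts of 5 surface receptors per 100 CD3 chain counts (geometric mean of Cd3d, Cd3e and Cd247) in the 3 Th2, 2 Th1 and 1 Th0 cultures, with points for cultures and lines for means. Cd5 was 20.2 in Th2 and 39.5 in Th1 cultures on average, and Cd6 was 8.69 in Th2 and 19.1 in Th1 cultures.

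The 5 genes whose levels followed the mean of the 3 CD3 chains most closely over the 12 samples, of 219 that were above the limit in at least 9 samples, were Ets1 (Pearson r = 0.99), Pml (0.98), Socs1 (0.97), Arhgdib (0.97) and Batf (0.96), on log2(scaled count + 1). The samples lie in 2 blocks, skin and cultures, which also differ in depth, so these coefficients describe the gap between the blocks and carry no p. Ets1, a transcription factor of lymphocytes, had 110 to 394 scaled counts in skin and 1898 to 2941 in Th2 cultures and was above the limit in 5 of 6 skin samples. Pml, a nuclear body protein, had 77.2 to 196 in skin and 344 to 399 in Th2 cultures.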

How the data were processed

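RNA of 12 samples was hybridized to the mouse Immunology panel of NanoString. The authors deposited raw digital counts for each probe as whole numbers (547 endogenous, 14 housekeeping, 8 negative control, 6 positive control), with no scaling; they analysed them in Rosalind with a two-tailed test and no covariates. No genome build applies to the counts. The 9 genes and all gene lists, the 4 genes that check the culture types included, were chosen with earlier results of these data known; every one of the 9 is named, with the 3 largest changes each way among other T cell genes whose groups did not overlap and the 5 genes most like the CD3 chains. A fold printed as a bound is the higher group's mean scaled count over the lower group's mean, with each sample of the lower group at its scaled limit or its own value, whichever is higher.

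Counts were scaled by 7 of the 14 housekeeping genes, those that exceeded the limit everywhere, through their geometric mean. A gene was tested if it exceeded the limit in a minimum number of samples, set to the size of the smaller group (3 for skin against Th2, 2 for Th2 against Th1), with edgeR 4.0.16 (R 4.3.3) at an adjusted p of 0.05. Skin against Th2 averaged flare and first lesions in 1 fit. Each standard error was obtained by dividing the log2 fold change by the root of its F statistic. Alternatives were TMM, DESeq2 size factors, total endogenous or positive control counts as scaling, no filter, a minimum of 50 counts throughout 1 group, DESeq2 1.42.0, limma 3.58.1 on log2(scaled count + 1), subtraction of the negative control mean, all 12 samples in 1 fit, a replicate block for the experiment, only experiment 1, Cd3e alone as reference, and each sample left out. The labels place each culture in experiment 1 or 2, and the difference between experiments correlated across 400 genes between Th2 and Th1 cultures (r = 0.18, genes are not independent replicates). Beyond the experiments and mice, the sources used here do not say that cultures came from separate donors, so p-values measure the spread between these samples. Depth limits precision: skin samples had 25925 to 131229 endogenous counts.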

Additional observations from a re-analysis of the deposited data

How the results depend on the processing

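In skin against Th2 cultures 8 of the genes were called lower under every alternative but experiment 1 alone (7, without Cd6); at flare all 8 were, and at first lesions 7 or 8 (Cd6 was called under 8 of 17 alternatives, adjusted p 2.4e-05 to 0.25). Leaving out 1 sample gave 8 in skin, 8 at flare and 7 to 8 at first lesions. Under the main filter Cd3d, Cd3e, Cd247, Cd4, Cd5 and Cd6 entered the test only through the cultures. That their calls held over the alternatives is therefore no support of its own. Of the 420 genes tested in skin against Th2, 161 were called lower with TMM and 97 with the housekeeping genes. With no filter, 1 gene, Cd7, was called higher in skin and at flare, on counts at or below the limit. In Th2 against Th1 cultures 3 genes were called higher with the experiment as a replicate block, 1 with DESeq2's Wald test, 1 with limma, 1 with background subtraction, and 0 to 3 on leaving out a culture; 2 were called lower with total endogenous counts. Relative to the CD3 chains, the 2 lower genes fell to 0 in limma and with background subtraction and to 0 to 2 on leaving out a culture. The replicate block changed no other call of these genes. Signs turned for genes that were not called: Thy1 in flare against first lesions (-0.36 with TMM, -0.37 with DESeq2 size factors, -0.35 with total counts, -0.026 to 0.41 on leaving out a sample), and in Th2 against Th1 cultures Cd247 (-0.22 with TMM, -0.22 with DESeq2 size factors, -0.48 with total counts), Cd4 (-0.20, -0.21 and -0.47), Cd2 (-0.18, -0.18 and -0.44), Cd3e (-0.031 with total counts), and Cd5 (-0.66 to 0.31) and Cd6 (-0.93 to 0.23) on leaving out a culture. The cause was not tested. Skin relative to the CD3 chains was not run, since the reference was not measurable. Low depth and the high limit in skin leave most of the decreases there, other than those of Cd2 and Thy1, as bounds. Over all genes TMM gave 145 higher and 155 lower at flare against Th2 (208 and 87 with the housekeeping genes), 129 and 131 at first lesions (147 and 88), and 36 and 31 in Th2 against Th1 cultures (109 and 18).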
